A study of Arvicanthis niloticus with 5 samples.

Results

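Cyclic nucleotide signalling genes of the Nile rat eye are described here: the cyclases that make cAMP and cGMP, the phosphodiesterases (PDEs) that break them down, and the channels, kinases and exchange factors that bind them. The Nile rat (Arvicanthis niloticus) is a day-active African rodent. Genes were chosen by a rule on symbols that uses no levels, though with earlier results of these data known. Of the 13983 named genes, 49 met the rule. The labels list 5 wild type eye samples in 1 group, with no treatment and no comparison group. Per the labels' protocols, RNA of 5 rats was pooled into the library of the species, and the deposited table has no column per sample. The labels do not say whether its single column stands for all 5 samples or for 1, and it was treated as 1 pool. Each level below is therefore a single value with no replicate error, and brackets give 95% intervals for counting error alone.

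Cyclic nucleotides are best known in the eye from phototransduction. In the dark, membrane guanylate cyclases of the photoreceptor outer segment make cGMP, which holds the cyclic nucleotide-gated (CNG) channels open. Light activates transducin, transducin relieves PDE6 of its inhibitory subunits, cGMP is broken down and the channels close. The fall in calcium that follows lets guanylate cyclase activator proteins switch the cyclases back on. The other arm, cAMP with protein kinase A and the Epac exchange factors, works in most cell types.

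The pool was that of a whole eye. Of 31 marker genes fixed for 10 tissue or cell types, 29 were carried by a transcript and 28 reached 1 FPKM (mapped fragments per 1000 nt of transcript and per 1000000 fragments in all, a level corrected for length). Of all named genes, 93.2% reached 1 FPKM. The 10 types include olfactory epithelium, with Gnal at 7.82 FPKM, and pineal, with Aanat at 0.711 FPKM, while Omp and Asmt were not carried. The 3 ON bipolar markers lay between 3.61 and 57.0 FPKM. The 5 rod markers lay between 13.1 and 502 FPKM and the 4 cone markers between 86.5 and 162 FPKM. The 4 lens markers lay between 253 and 2894 FPKM. The rod marker Cnga1 and the lowest cone marker, Pde6h, are also among the cyclic nucleotide genes described here, so they are no separate check. Without this pair, the rod markers lay between 13.1 and 502 FPKM and the cone markers between 139 and 162 FPKM. Genes of adjoining tissue were present as well: the 4 skeletal muscle markers lay between 28.6 and 174 FPKM, and the globins Hba-a1 and Hbb-b1 at 158 and 112 FPKM. Their part in the levels below was not tested. In such a pool, fewer cells of a type and less RNA per cell cannot be told apart.

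The 49 genes as a set stood near the named genes at 1 and 5 FPKM and above them at 10 and 100 FPKM. Of the 49, 48 reached 1 FPKM, or 98.0%, where 93.2% of all named genes did so. At 5 FPKM the count was 32 of 49, or 65.3%, against 59.8% of named genes. At 10 FPKM the count was 25 of 49, or 51.0%, against 34% of named genes, and at 100 FPKM it was 3 of 49, or 6.12%, against 2.21%. Their median was 10.4 FPKM, set beside 6.50 FPKM over all named genes. Leaving out the 3 genes matched only by the letters of their names gave a median of 8.47 FPKM. Leaving out the 2 guanylate cyclase activators instead gave 6.56 FPKM over 47 genes, close to that of all named genes. The median gene, Rapgef4 at 10.4 FPKM, stood above a gap in the levels, with the next gene down, Pde8a, at 6.56 FPKM. With a length-weighted mean over the transcripts of a gene the median was 6.56 FPKM over the 49 genes, set beside 6.08 FPKM over all named genes. The surplus over named genes lay in the upper part of the range, and 23 of the 49 genes were at or below the median of all named genes.

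**Figure D1:**
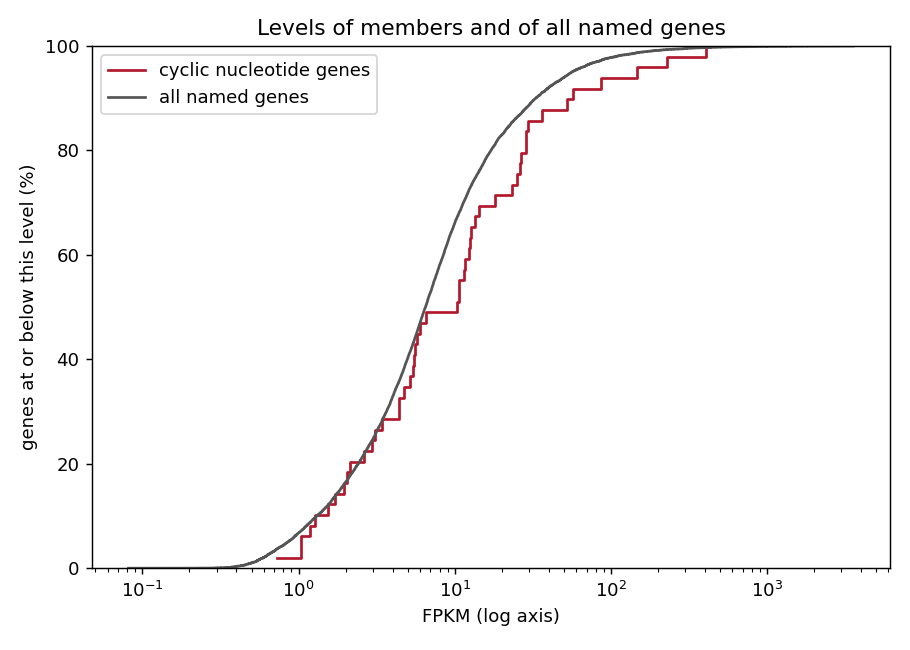
Share of genes (vertical axis, percent) at or below each level (horizontal axis, FPKM on a log axis) for the 49 cyclic nucleotide genes and for all 13983 named genes of the pool. The curves run close together below about 5 FPKM, and the cyclic nucleotide genes lie to the right of all named genes between 10 and 100 FPKM.

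Phototransduction genes held most of the RNA of the set. The 12 genes of PDE6, the CNG channels, the retinal guanylate cyclases and their activators summed to 1044 FPKM [1037 to 1051], or 73.4% of the FPKM of the 49 genes. The other 37 genes summed to 379 FPKM [376 to 382]. Most of this difference lay in the guanylate cyclase activators. Without them, the phototransduction genes summed to 406 FPKM, 1.07-fold [1.05 to 1.09] the sum of the other 37. The median was 32.3 FPKM over the 12 phototransduction genes and 5.56 FPKM over the other 37. By fragment counts, with no division by length, the 12 genes held 60.5% of the set. All 49 genes together made up 0.578% [0.575 to 0.581] of the FPKM of named genes.

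**Figure D2:**
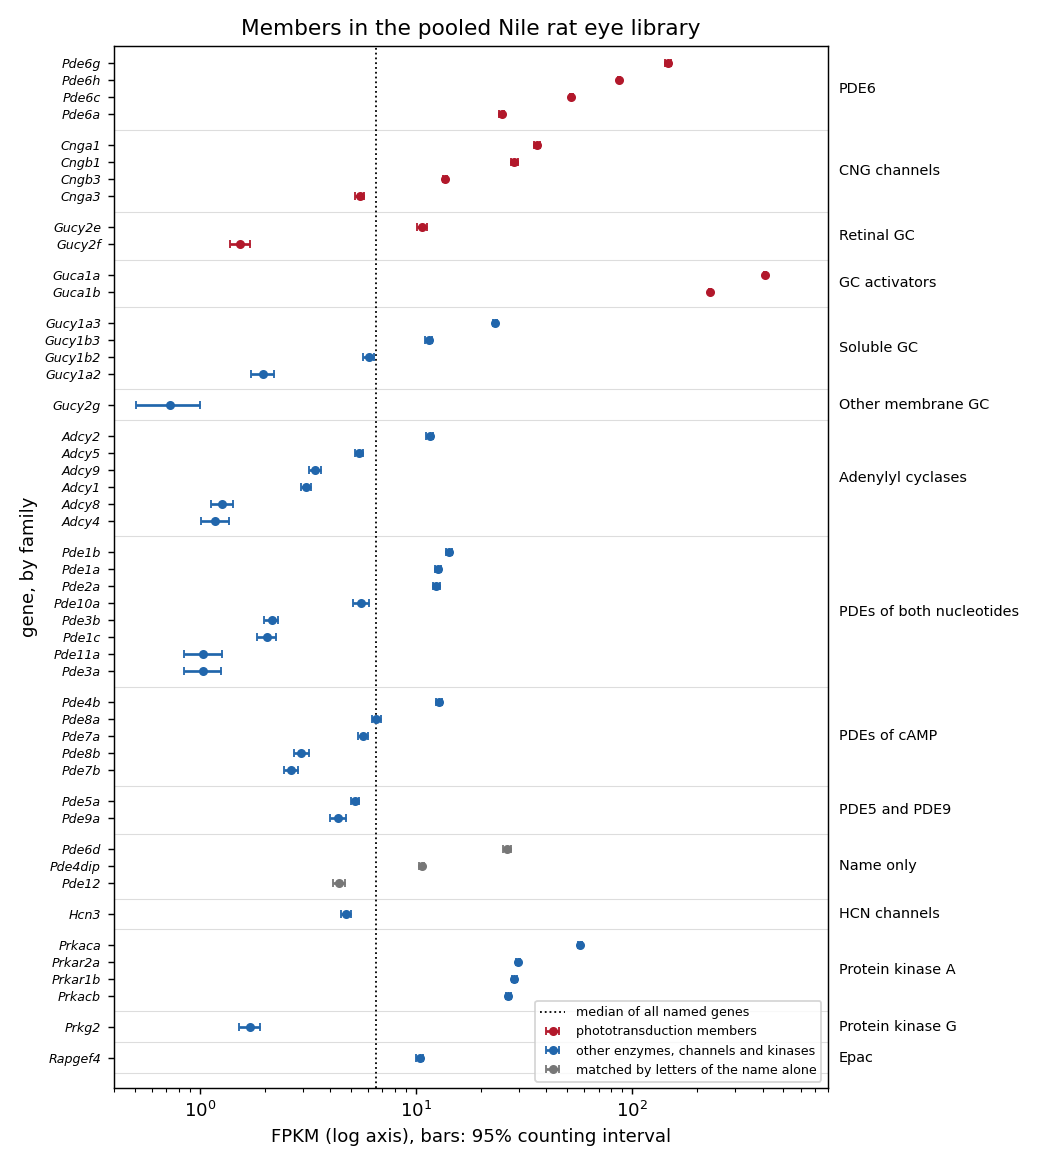
Level of the genes reported one by one (horizontal axis, FPKM on a log axis) with its 95% counting interval, by family (vertical axis) and coloured by role; the dotted line is the median of all named genes. The activators Guca1a and Guca1b and the inhibitory subunits Pde6g and Pde6h are the 4 highest, and Gucy2g, the lowest, stands at 0.728 FPKM.

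The guanylate cyclase activator proteins were the most abundant genes of the set. Guca1a, which encodes the calcium sensor GCAP1, stood at 410 FPKM [406 to 414] on 36610 fragments, rank 46 among all named genes. Guca1b, encoding GCAP2, stood at 228 FPKM [225 to 231] on 25810 fragments, rank 100. Guca1a was 1.80-fold [1.77 to 1.82] above Guca1b, and the pair alone held 44.8% of the FPKM of the 49 genes. Each rested on a single transcript, of 1375 nt for Guca1a and 1741 nt for Guca1b.

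Their targets, the retinal membrane guanylate cyclases, were far less abundant. Gucy2e, the rodent counterpart of human GUCY2D and the main cyclase of the photoreceptor outer segment, stood at 10.6 FPKM [10.1 to 11.2]. Gucy2f, the second retinal cyclase, stood at 1.54 FPKM [1.39 to 1.70], so that Gucy2e was 6.90-fold [6.15 to 7.74] higher, or 3.69-fold by fragments and 4.58-fold with a pseudocount of 1 FPKM. Summed, the activators were at 638 FPKM and the retinal cyclases at 12.2 FPKM, a 52.5-fold [50.0 to 55.1] difference. Fragments gave the same direction, with a log2 ratio of 5.17 in place of 5.71. The Gucy2e transcript was 1973 nt long and named Gucy2e in mouse and rat and GUCY2D in human. Any transcript of these cyclases without a symbol would be missing from the sum. Left to transcripts on which the species names do not differ, Gucy2e drops out and the log2 ratio of the sums was 8.70.

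PDE6, the effector enzyme of phototransduction, showed more RNA for its inhibitory than for its catalytic subunits. Pde6g, the inhibitory subunit of rods, was at 146 FPKM [142 to 151], and Pde6h, its cone counterpart, at 86.5 FPKM [85.4 to 87.5]. The catalytic subunits were at 24.9 FPKM [24.3 to 25.5] for Pde6a of rods and 52.2 FPKM [51.3 to 53.2] for Pde6c of cones. The second rod catalytic subunit, Pde6b, was not analysed here because no transcript carried its symbol, so sums of catalytic subunits are without it. Summed, the inhibitory subunits stood at 233 FPKM and the 2 measured catalytic subunits at 77.1 FPKM, a 3.02-fold [2.94 to 3.10] difference that was 1.95-fold without transcripts under 500 nt and 1.74-fold by fragments. Of the cone subunits, Pde6h was 1.66-fold [1.62 to 1.69] above Pde6c, and this direction held in all 8 settings, between 0.72 and 1.69 on the log2 scale. Of the rod subunits, Pde6g was 5.88-fold [5.64 to 6.12] above Pde6a by FPKM, but Pde6g had 3795 fragments and Pde6a 6234, and the log2 ratio of fragments was -0.72.

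The transcripts behind the PDE6 genes differed widely in length. Pde6g added up 82.4 FPKM on a transcript of 307 nt, named from human only, and 63.9 FPKM on another of 518 nt, named from mouse only. Pde6h rested almost wholly on a transcript of 5060 nt at 85.7 FPKM, and a second one of 604 nt had 0.803 FPKM on 31.5 fragments. Pde6c added up 33.0 FPKM on a transcript of 2555 nt and 19.2 FPKM on another of 5358 nt. If the transcripts of a gene are pieces of 1 mRNA, their sum is too high: a length-weighted mean gave 70.8 FPKM for Pde6g, 76.6 FPKM for Pde6h and 23.7 FPKM for Pde6c. The order of rod and cone genes turned on this choice. Pde6g over Pde6h was 0.76 on the log2 scale by the sum and -0.11 by the length-weighted mean, and Pde6a over Pde6c was -1.07 by the sum and 0.072 by that mean.

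**Figure D3:**
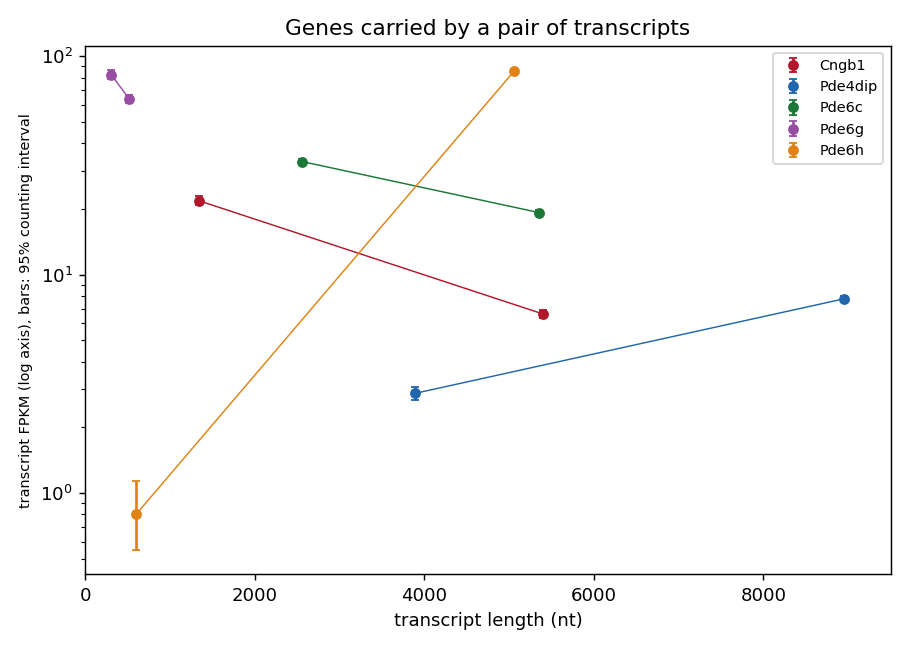
Level of each transcript (vertical axis, FPKM on a log axis, with 95% counting intervals) against its length (horizontal axis, nt) for Cngb1, Pde4dip, Pde6c, Pde6g and Pde6h, each carried by 2 transcripts, a line joining those of a gene. The Pde6h transcripts stand at 85.7 and 0.803 FPKM, while those of Pde6g are short and close in level.

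In the pool, the order of alpha and beta subunit RNA differed between the rod and the cone CNG channel. The rod channel is built of Cnga1 and Cngb1 subunits and the cone channel of Cnga3 and Cngb3. Cnga1 stood at 36.2 FPKM [35.2 to 37.2] and Cngb1 at 28.5 FPKM [27.4 to 29.5], a 1.27-fold [1.22 to 1.33] higher level of the alpha subunit. In the cone channel the order was the other way, with Cnga3 at 5.49 FPKM [5.22 to 5.77] and Cngb3 at 13.6 FPKM [13.3 to 13.9], a log2 ratio of -1.31 [-1.39 to -1.23]. Both directions held in all 8 settings, Cnga1 over Cngb1 between 0.25 and 1.91 and Cnga3 over Cngb3 between -2.06 and -1.17 on the log2 scale. Other ways to combine the Cngb1 transcripts can only lower Cngb1, and the naming and length filters left its ratio to Cnga1 unchanged. For Cnga1 over Cngb1, only fragments, at 0.25, could thus have turned the direction. For Cnga3 over Cngb3, with a single transcript each, only fragments and the pseudocount changed the ratio. A pseudocount cannot turn a direction. Fragments could not turn this pair either, as the higher Cngb3 also has the longer transcript, 7462 nt against 4431 nt. No setting was thus a check of its order. Cngb1 added up 21.8 FPKM on a transcript of 1337 nt and 6.60 FPKM on another of 5404 nt, and a length-weighted mean put it at 9.63 FPKM. The other 3 subunits rested on a single transcript each. The long Cngb3 transcript, of 7462 nt, carried 6589 fragments, the most of any channel subunit, where the 2125 nt transcript of Cnga1 carried 5001. The summed rod subunits were at 64.7 FPKM and the cone subunits at 19.1 FPKM, 3.39-fold [3.28 to 3.50] apart, and the log2 ratio of 1.76 shrank to 0.17 when fragments were used. No transcript carried the symbols of the olfactory subunits Cnga2 and Cnga4.

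**Figure D4:**
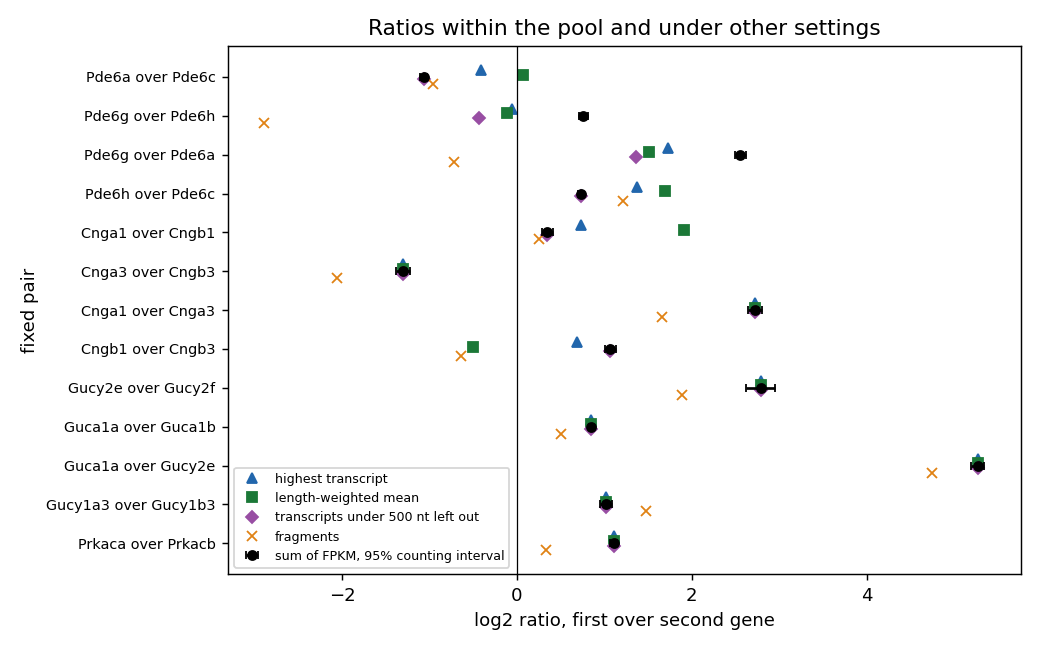
Log2 ratio of the first over the second gene (horizontal axis) for the 13 measured pairs (vertical axis): black points are the sum of FPKM with 95% counting intervals, and coloured marks the other settings. Cnga3 over Cngb3 lies below 0 in every setting shown, while the 4 pairs Pde6a over Pde6c, Pde6g over Pde6h, Pde6g over Pde6a and Cngb1 over Cngb3 have marks on both sides of 0.

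Soluble guanylate cyclase, the nitric oxide receptor, is a dimer of an alpha and a beta subunit. All 4 of its measured subunits reached 1 FPKM, as did 93.2% of named genes. The 4 subunits summed to 42.6 FPKM [41.8 to 43.5], above the 12.2 FPKM of the retinal membrane cyclases. Gucy1a3, the main alpha subunit, was at 23.2 FPKM [22.6 to 23.7] and Gucy1b3, its usual beta partner, at 11.4 FPKM, a 2.03-fold [1.94 to 2.13] difference. The direction held in all 8 settings, but with a single transcript each only fragments and the pseudocount changed the ratio. As the higher Gucy1a3 also has the longer transcript, 4465 nt against 3258 nt, neither of these could turn the direction. The second beta gene Gucy1b2 was at 6.04 FPKM and the second alpha gene Gucy1a2 at 1.96 FPKM. Gucy2g, a membrane cyclase of rodents, was the single gene of the set under 1 FPKM, at 0.728 FPKM [0.510 to 1.01] on 36 fragments of a 761 nt transcript. Its interval reaches past 1 FPKM. Of the enzymes and receptors upstream, the nitric oxide synthases Nos3 and Nos2 were at 2.62 and 0.817 FPKM. The natriuretic peptide receptors, of which Npr1 and Npr2 are themselves guanylate cyclases, were at 2.49 FPKM for Npr1, 7.11 FPKM for Npr2 and 10.8 FPKM for Npr3, the clearance receptor.

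Adenylyl cyclases, which make cAMP, were low as a family. All 6 measured genes reached 1 FPKM, as did 93.2% of named genes. Of the 6, 2 reached 5 FPKM, Adcy2 and Adcy5, a level that 59.8% of named genes reached. Adcy2, a cyclase stimulated by G protein beta-gamma subunits, led at 11.6 FPKM, followed by the calcium-inhibited Adcy5 at 5.44 FPKM and Adcy9 at 3.41 FPKM. The calcium-stimulated cyclases of neurons, Adcy1 and Adcy8, were at 3.10 and 1.27 FPKM, and Adcy4 was lowest at 1.18 FPKM [1.02 to 1.37]. The Adcy2 transcript carried a clone name in human, while all 3 species names were the same on that of Adcy8. No transcript carried the symbols Adcy3, Adcy6, Adcy7 or Adcy10, and the 26.0 FPKM of the family does not include them.

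Outside PDE6, 15 phosphodiesterases were measured, between 1.03 and 14.2 FPKM, and all reached 1 FPKM, as did 93.2% of named genes. At 5 FPKM the count was 8 of 15, against 59.8% of named genes. The median of the 15 was 5.21 FPKM, set beside 6.50 FPKM over all named genes. These 15 summed to 91.3 FPKM, against which the measured catalytic subunits of PDE6 stood at a log2 ratio of -0.24 [-0.27 to -0.21]. The log2 ratio was -0.91 with a length-weighted mean, and its direction turned to 0.0024 when transcripts whose species names differ were left out. The calcium- and calmodulin-stimulated Pde1b led at 14.2 FPKM [13.8 to 14.7], followed by the cAMP-specific Pde4b at 12.8 FPKM [12.3 to 13.2], Pde1a at 12.6 FPKM and the cGMP-stimulated Pde2a at 12.4 FPKM. Pde1a, Pde2a and Pde4b had overlapping intervals and were not ordered among themselves by their counting error. The Pde1b transcript was named Pde1b in mouse and rat and carried a clone name in human.

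The remaining phosphodiesterases fell in a lower range. Pde8a was at 6.56 FPKM, Pde7a at 5.70 FPKM, Pde10a at 5.56 FPKM, and the cGMP-specific Pde5a and Pde9a at 5.21 and 4.37 FPKM. Pde8b, Pde7b, Pde3b and Pde1c lay between 2.04 and 2.95 FPKM. Pde11a at 1.04 FPKM [0.842 to 1.27] and Pde3a at 1.03 FPKM [0.845 to 1.25] were lowest, and both intervals include 1 FPKM. The PDE3 enzymes, which cGMP inhibits, were thus both in the lower part of the range, with Pde3b at 2.15 FPKM.

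Protein kinase A, the main cAMP effector, was the most abundant family outside phototransduction, at 142 FPKM [141 to 144] over 4 subunits. The catalytic subunit Prkaca stood at 57.5 FPKM [56.3 to 58.7], rank 5 of the 49 genes, and Prkacb at 26.7 FPKM [26.1 to 27.4]. This 2.15-fold [2.08 to 2.22] difference kept its direction in all 8 settings and was 1.26-fold by fragments. With a single transcript for each gene, only fragments and the pseudocount changed the ratio. The regulatory subunits Prkar2a at 29.6 FPKM [29.0 to 30.3] and Prkar1b, a neuronal form, at 28.4 FPKM [27.6 to 29.2] had overlapping intervals. No transcript was named Prkar1a or Prkar2b, and these were not analysed here, so the 1.45-fold excess of summed catalytic over summed regulatory subunits leaves those genes out. Of the cGMP kinases only Prkg2, the membrane-bound form, was measured, at 1.70 FPKM [1.52 to 1.90]. The Epac exchange factor Rapgef4 was at 10.4 FPKM on 2792 fragments, and Rapgef3 was not measured.

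HCN channels carry a hyperpolarization-activated current of photoreceptors and other neurons, and cyclic nucleotides bind them. Hcn3 stood at 4.75 FPKM [4.50 to 5.01]. Pex5l, which encodes the HCN-binding protein TRIP8b, was at 53.6 FPKM [52.1 to 55.0], a sum over 2 transcripts.

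Of the 49 genes, 3 are matched by their letters rather than by acting on cyclic nucleotides themselves. Pde6d, at 26.3 FPKM [25.3 to 27.4], encodes a prenyl-binding protein that ferries lipid-anchored proteins, PDE6 among them. Pde4dip, at 10.6 FPKM, encodes the anchoring protein myomegalin, and Pde12, at 4.40 FPKM, a mitochondrial RNA-degrading enzyme. Counts and sums over all 49 genes include them.

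**Figure D5:**
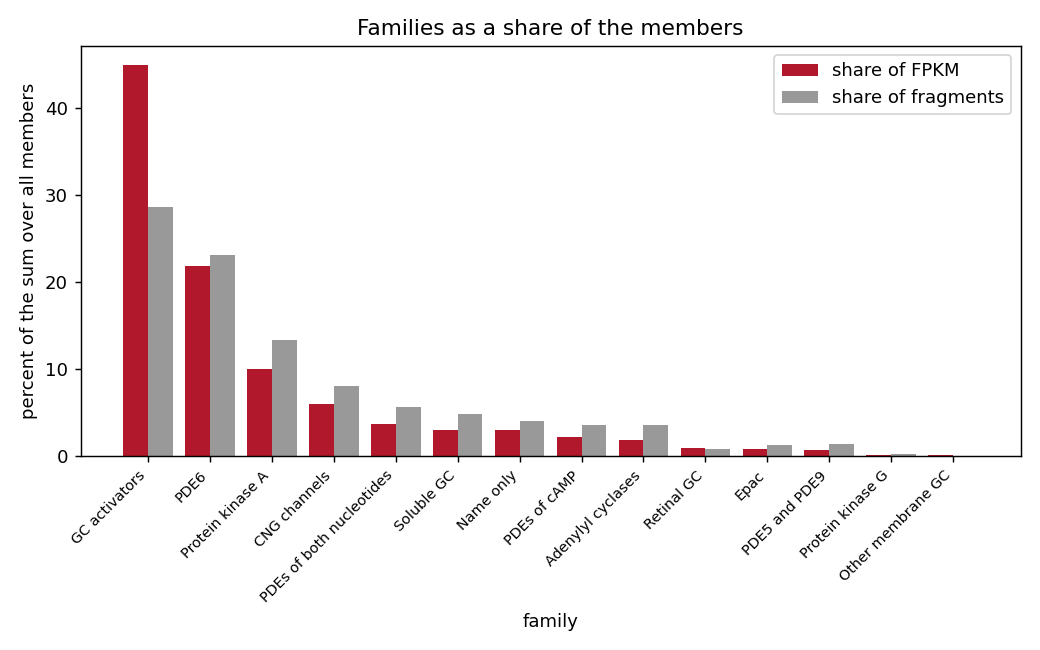
Share of the families (horizontal axis, in order of FPKM; the HCN channels are not shown) in the sum over the 49 genes (vertical axis, percent), as FPKM and as fragments. The activators hold 44.8% of FPKM and 28.6% of fragments, PDE6 21.8% and 23.1%, and the CNG channels 5.89% and 7.97%.

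The order of the genes also depended on whether length was divided out. Pde6h ranked 4 by FPKM and 2 by fragments, with 28196 fragments, while Pde6g ranked 3 by FPKM on 3795 fragments. In the order by FPKM, 33 of the 48 neighbouring pairs had overlapping counting intervals. The first 7 genes, Guca1a, Guca1b, Pde6g, Pde6h, Prkaca, Pde6c and Cnga1, were each clear of their neighbours. Below them, the 8 genes in order of level from Pde4b at 12.8 FPKM to Rapgef4 at 10.4 FPKM each overlapped the next, and likewise the 10 genes from Pde8a at 6.56 FPKM to Pde9a at 4.37 FPKM.

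Of 40 further symbols listed for these pathways, 36 were carried by a transcript in that spelling and 33 reached 1 FPKM, with a median of 5.35 FPKM. Of all named genes, 93.2% reached 1 FPKM, with a median of 6.50 FPKM. All 6 listed genes around phototransduction and the photoreceptor cilium were measured. Unc119 and Arl3, which take part in the transport of lipid-anchored proteins to the cilium, were at 444 and 138 FPKM, Arl3 as a sum over 2 transcripts. The calcium sensor recoverin (Rcvrn), which acts on the opsin kinase, was at 47.5 FPKM, the PDE6 chaperone Aipl1 at 30.6 FPKM [29.7 to 31.4] and the cyclase-binding Rd3 at 25.7 FPKM [24.7 to 26.7], above the 10.6 FPKM of Gucy2e. Rpgr, a protein of the connecting cilium, was lowest at 2.96 FPKM. The 10 listed A-kinase anchoring protein symbols that were carried lay between 0.494 and 8.31 FPKM, all below each of the 4 measured kinase A subunits, with Akap7 highest among them. Outside the list, and looked up after the levels were seen, Akap95, another name of Akap8, was at 12.1 FPKM and Akap8l at 8.96 FPKM. Of the kinase inhibitors, Pkia was at 19.4 FPKM, Pkig at 12.5 FPKM and Pkib at 1.90 FPKM. The cAMP-responsive transcription factors and coactivators lay between 3.79 FPKM for Crtc2 and 10.9 FPKM for Crem, with Creb1 at 9.37 FPKM. The cyclic nucleotide exporters Abcc4 and Abcc5 were at 3.22 and 4.98 FPKM. The Popeye genes, whose proteins bind cAMP in muscle, lay between 0.970 FPKM for Bves and 1.89 FPKM for Popdc3.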

How the data were processed

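The authors deposited 1 value per transcript: FPKM, an estimated count of fragments that need not be whole, and length, per the file headers. FPKM was divided by a stated total of 64967222 mapped fragments. Per the submitters' processing notes Bowtie was used; for its version, the assembly and the build: not given in the sources used here. Of the 55 transcripts of these genes, 58.2% had a fractional estimated count (tolerance 1e-06), where 44.0% of named and 39.3% of all transcripts did, so fragments were shared between transcripts.

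Each transcript took its first symbol in the order mouse, rat, human of the deposited ortholog table, and a gene its summed FPKM. Of 55 transcripts, 43 were named from mouse, 3 from rat and 9 from human. RefSeq (Nile rat) held the same symbol for 44 of the 49 genes. Of 67 symbols listed for these families, 47 were carried by a transcript. Of 18 fixed pairs, 13 could be measured.

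Intervals are 95% gamma (Fay-Feuer) intervals for levels and delta-method Poisson intervals for ratios, checked on simulated counts. They cover counting error only, as they are built from the fragment counts of 1 column. They also treat each fragment as independent, which PCR copies are not, so they can be too narrow. At this depth 1 FPKM on 1000 nt rests on 65.0 fragments (0.772 to 1.27 FPKM), and a count of 0 allows 0.0462 FPKM. With 1 pool there was no test. The genes, lists and pairs were chosen with earlier results of these data known. The genes named are both members of each pair, the 15 of highest FPKM and the lowest of each family, with others as examples; 1 gene is not reported here but enters the counts, medians and sums. The planned check of transcript length against coding length was not run, for lack of protein sequences. Alternatives were other ways to combine, name or filter transcripts, fragments in place of FPKM, other detection thresholds and a pseudocount of 1 FPKM. Tools were SciPy 1.17.1, NumPy 2.4.6 and pandas 2.3.3 under Python 3.11.15, with Matplotlib 3.10.9 for figures.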

Additional observations from a re-analysis of the deposited data

How the results depend on the processing

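The number of genes at or above the detection level stayed within 1.5 times of 48 in every setting, between 32 at 5 FPKM and 49 at 0.5 FPKM, and the number of pairs with the first gene higher lay between 8 and 11. The share of named FPKM, 0.578%, was 0.563% with the highest transcript, 0.564% with the length-weighted mean, 0.614% without transcripts under 500 nt, 0.671% with transcripts whose species names do not differ, 0.692% as fragments and 0.561% without the 3 genes matched by letters, a setting chosen after seeing the data. The median of 10.4 FPKM was 7.75, 6.56, 6.56 and 8.47 FPKM with the highest transcript, the length-weighted mean, undiffering names and without those 3 genes. The phototransduction share of 73.4% was 72.2%, 71.4%, 71.7%, 74.8%, 60.5% and 75.5% in the order given for the share of named FPKM. Of 13 pairs, 9 kept their direction in every setting in which both genes were measured. Where both genes of a pair rest on a single transcript, only fragments and the pseudocount changed the ratio, and a pseudocount cannot turn a direction. Fragments cannot turn it either where the higher gene has the longer transcript, as for Cnga3 over Cngb3 and Gucy1a3 over Gucy1b3. The direction of these pairs was fixed in advance. Pde6g over Pde6h turned to -0.056 (highest transcript), -0.11 (length-weighted mean), -0.44 (without transcripts under 500 nt) and -2.89 (fragments) on the log2 scale. Pde6a over Pde6c turned to 0.072 and Cngb1 over Cngb3 to -0.50 with the length-weighted mean, and fragments turned Cngb1 over Cngb3 to -0.64 and Pde6g over Pde6a to -0.72. The log2 ratio of the summed PDE6 catalytic subunits over the other phosphodiesterases, -0.24, was -0.66 with the highest transcript and -0.91 with the length-weighted mean, and it turned to 0.0024 with undiffering names, which removes Pde1b. The levels that moved beyond their counting interval were those of the 6 genes with 2 transcripts. A count at a detection level and a median in FPKM have no value as fragments. No paired analysis was possible because the table has 1 column for all samples.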
